A study of Homo sapiens with 4 samples.

Results

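The direction in which a stretch of DNA faced its promoter was compared over the FAM13A locus, a region of chromosome 4 tied to chronic obstructive pulmonary disease, by reporter assay in BEAS-2B cells. These cells are an established human bronchial epithelial line. A pair here is 1 variant in 1 of 3 oligonucleotide windows, named L, C and R, read once in the orientation named F and once in the orientation named RC, with both alleles pooled. The window is taken from the column of the table, which gives L for both orientations, although part of the RC oligonucleotide names write it as a lower-case l, of unstated meaning. Tags with at least 10 input reads were kept, and a pair entered with at least 10 tags in each orientation. Of 1818 combinations of variant and window, 1817 were listed in both orientations, and 1768 passed in at least 1 library: 1763 of them with the minimal promoter, 1759 with the SV40 promoter and 1754 with both.

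For each of the 2 promoters there was an input group and an RNA group, so 4 groups in all, with 1 library in each. The minimal promoter (minP) was labelled relatively weak and the simian virus 40 promoter (SV40) strong. Input libraries were amplified from the plasmid pools, and RNA libraries from mRNA of nucleofected cells 24 hours after transfection. All 4 libraries carry the same 218526 tags, and no transfection was repeated, so every error below is a standard error over tags and every p-value measures how tags scatter within a transfection, not how transfections differ. The plasmids lie outside the chromosome, so the assay reads the short sequence and not its native chromatin.

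An enhancer is by textbook definition a sequence that raises transcription from a promoter at a distance and in either orientation. A promoter has a direction, and a sequence with promoter activity of its own, a splice site or a polyadenylation signal can act on a reporter in a way that depends on which strand is read. In a massively parallel reporter assay each construct carries many short barcodes, called tags, in the transcribed part of the reporter, so that the reads of a tag in RNA over its reads in the plasmid pool give the activity of the element. FAM13A is transcribed from the minus strand. The labels F and RC stand for forward and reverse complement. Which strand of the genome F follows was not analysed here, since no genome sequence was used.

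The tags of the pairs with the largest mean difference in each direction are shown because they let the finding be read from single barcodes. They are the 3 tags of each orientation with the most minP input reads, 5′ to 3′, for rs10516826 in window L and rs10019681 in window C.
rs10516826 F, C allele: gtctacgttag
rs10516826 F, T allele: aagcgaactta
rs10516826 F, C allele: gtaagccactc
rs10516826 RC, C allele: gtttacctgga
rs10516826 RC, C allele: cttatgtctca
rs10516826 RC, C allele: ggatcgtcact
rs10019681 F, C allele: catggaggcta
rs10019681 F, T allele: atttagcagtc
rs10019681 F, C allele: ggcaagtgtca
rs10019681 RC, C allele: gttcatcgcgg
rs10019681 RC, T allele: acgaagtagga
rs10019681 RC, T allele: gttatcctgtc

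With minP the 3 F tags of rs10516826 had 72, 53 and 47 input reads and 43, 72 and 158 RNA reads. Its 3 RC tags had 560, 472 and 457 input reads and 28, 43 and 25 RNA reads. Each F tag shown thus had at least as many RNA reads as any RC tag shown, from fewer plasmid reads. With SV40 the F tags had 9, 19 and 13 input and 80, 224 and 342 RNA reads, and the RC tags 322, 197 and 371 input and 16, 24 and 42 RNA reads. For rs10019681 the picture turned over. Its 3 F tags had 1048, 837 and 806 minP input reads and 56, 52 and 137 RNA reads, while its 3 RC tags had 78, 73 and 67 input and 293, 331 and 231 RNA reads. With SV40 its F tags had 609, 413 and 227 input and 103, 60 and 194 RNA reads, against 69, 122 and 48 input and 686, 828 and 566 RNA reads in RC.

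The libraries held between 11086933 reads (minP RNA) and 29398765 reads (minP input), and the median tag had between 23 and 85 reads. Depth was slightly higher in F than in RC as a whole. F held 50.7% of the input reads with each promoter, and 51.6% of the RNA reads with minP and 51.7% with SV40. With minP the median passing tag had 102 input and 30 RNA reads in F, against 97 and 28 in RC. With SV40 these were 94 and 68 in F, against 90 and 61 in RC. F had 109331 tags on 3636 oligonucleotides and RC 109195 tags on 3634. With minP 97752 F tags and 97725 RC tags had at least 10 input reads, of which 13337 and 13338 had 0 RNA reads, and with SV40 96345 and 96473 passed, of which 7999 and 8166 had 0 RNA reads. Tags held 5.48 G or C bases on average in each orientation. The median orientation of a pair had 58 tags in each library. The mean tag ratio, which is the log2 of the RNA share of a tag over its input share with 1 read added to each, was -0.78 with minP and -1.01 with SV40, and activities below are differences from those averages.

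With minP, the ratio of RNA to input differed between the orientations in a large share of pairs, in both directions about equally. Of 1763 pairs 795 passed the threshold, an adjusted p under 0.05 in a two-sided permutation test over tags with Benjamini-Hochberg adjustment over all pairs of the library. F was higher in 401 (22.7% of those tested) and RC in 394 (22.3%). The called pairs covered 490 of 604 variants. They differed by a median of 2.56-fold, over a range of 1.40 to 75.8-fold, and 182 of them differed by more than 4-fold and 28 by more than 16-fold. Over all pairs the median of F minus RC was 0.031 on the log2 scale, F was higher in 904 pairs (51.3%, exact 95% binomial interval 48.9 to 53.6, counting error only), and the median difference without its sign was 1.62-fold. The median SE was 0.35 on the log2 scale.

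With SV40 the count was close to that. Of 1759 pairs 825 passed, 421 with F higher (23.9%) and 404 with RC higher (23.0%), with a median of 3.01-fold and a range of 1.38 to 76.3-fold. Over all pairs the median of F minus RC was 0.029, and F was higher in 897 (exact 95% binomial interval of the share 48.6 to 53.4%). More than 4-fold separated the orientations in 250 called pairs and more than 16-fold in 27. The activity of an element in F was not tracked by its activity in RC: over pairs, Pearson's r between the mean tag ratios in F and in RC was -0.098 with minP and -0.0026 with SV40, and Spearman's rank correlation was 0.0035 and 0.035. These are descriptions across pairs, which overlap in sequence and share the libraries.

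The partner orientation of highly active elements was described next. At 1 on the log2 scale above the average tag, 295 minP pairs had an active orientation, the other orientation lay above the average in 120 and also reached 1 in 5, and its median was -0.25. With SV40 these were 397 pairs, 187, 15 and -0.09. The pairs with an active orientation were 295 of 1763 with minP and 397 of 1759 with SV40. How many partners would reach 1 from the share of all values there was not computed, so nothing is concluded from the 5 and 15. With minP, 45 pairs had an orientation at least 2 on the log2 scale above the average tag. In 0 of the 45 did the other orientation also reach that level, in 7 it lay above the average, and in 30 it lay at least 1 below. Among all 3526 orientation values 45 lay at least 2 above, so a count of 0 among 45 partners is near the share over all values and shows nothing particular to these pairs. Of all values 54.9% lay above the average and 13.8% at least 1 below. With SV40 the 69 such pairs had 0 with both orientations at that level, 13 with the other above the average and 29 with it at least 1 below, where 69 of all 3518 values reached the level, 53.8% lay above the average and 17% at least 1 below. At 3 on the log2 scale the numbers were 13 pairs with minP, of which 12 had the other orientation at least 1 below the average, and 19 with SV40, of which 9 did. The active orientation was F in 26 of 45 pairs with minP and in 40 of 69 with SV40.

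The plasmid and RNA reads of these pairs are given as a description only. Both enter the ratio by which the pairs were picked, so fewer input and more RNA reads in the active orientation were favoured beforehand. In the 45 minP pairs the median tag of the active orientation had 29 input and 57.5 RNA reads, and that of the other orientation 180 input and 17 RNA reads, where the median over all orientations was 92 and 27. In the 69 SV40 pairs the values were 28.5 input and 140 RNA reads for the active orientation and 131 and 35 for the other, against 84 and 60 overall. In these picked pairs the active orientation thus had fewer plasmid reads and more RNA reads than its partner. Over all pairs, r between the ratio difference and the input difference was -0.169 with minP and 0.036 with SV40. The part of input abundance in the activity was not tested.

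Among pairs with F higher, rs1398940 at position 89937184 (chromosome 4, here and below, read as hg19, a build that neither the labels nor the header of the table names) had the largest difference with minP. In window L its median tag had 40 input and 122 RNA reads in F and 143 input and 7 RNA reads in RC. Relative to the average tag, F tags ran from 0.51 over a median of 4.21 to 6.86, and RC tags from -5.95 over -1.80 to 3.07, so the highest RC tags overlapped the lowest F tags. F minus RC was 6.24 ± 0.32 (SE, 39 and 57 tags), or 75.8-fold (permutation test, adjusted p = 6.58e-05, the value of all pairs at the smallest p the resamples can give). With SV40 its median tag had 23 input and 317 RNA reads in F and 61 and 10 in RC, and the difference was 5.62 ± 0.37, or 49.2-fold.

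The neighbour rs2869974, 108 bases lower at 89937076, was also far higher in F. In window C its median tag had 31 input and 127 RNA reads in F and 190 and 16 in RC with minP, and 24 and 307 against 130 and 20.5 with SV40. The difference was 5.58 ± 0.26 with minP and 5.77 ± 0.28 with SV40, or 47.7-fold and 54.5-fold. F stood 16.5-fold and 21.6-fold above the average tag, and RC 2.89-fold and 2.52-fold below it. Window R of rs2869974 was F-high as well, by 4.78 ± 0.28 with minP and 4.46 ± 0.34 with SV40, and window L by 2.08 ± 0.47 and 3.73 ± 0.40. For rs1398940, window C was F-high by 1.18 ± 0.33 and 1.57 ± 0.41, while window R was RC-high, at -1.61 ± 0.29 and -1.73 ± 0.29. All of these ratio differences passed the threshold. In RNA counts alone window R of rs2869974 differed by 0.21 ± 0.31 with minP, which did not pass, and 0.97 ± 0.30 with SV40. In input counts alone that window differed by -4.57 ± 0.19 and -3.49 ± 0.21. Its window L in RNA counts alone differed by 0.32 ± 0.46 with minP, which did not pass, and 2.05 ± 0.40 with SV40.

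The largest mean of both libraries was that of rs10516826 at 89918968, whose tags are printed above. In window L the median tag had 23.5 input and 84 RNA reads in F and 153.5 and 10 in RC with minP, and 23 and 176 against 249 and 18.5 with SV40. F minus RC was 5.67 ± 0.25 with minP (30 and 64 tags) and 6.25 ± 0.34 with SV40, the largest difference of that library at 76.3-fold (permutation test, adjusted p = 6.15e-05). With minP the lowest F tag lay at 1.36 and the highest RC tag at 1.33 relative to the average, so the orientations did not overlap. With SV40 they did, with the lowest F tag at -1.29 and the highest RC tag at 0.26. In window R of the same variant the difference was -0.29 ± 0.37 and -0.17 ± 0.44 and did not pass.

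For rs2924941 at 89644197, the median tag of window L had 31.5 input and 123 RNA reads in F and 95.5 and 7.50 in RC with minP, and 28.5 and 277 against 64 and 6 with SV40. F was higher by 39.0-fold and 34.8-fold. With SV40 the log2 difference of 5.12 became 6.12 with an input minimum of 1, and with minP 5.29 became 4.16 with an input minimum of 50. Window C was F-high too (4.71 ± 0.33 and 4.99 ± 0.32), and window R was RC-high (-2.24 ± 0.22 and -2.03 ± 0.26). In RNA counts alone window R differed by -0.23 ± 0.27 and -0.17 ± 0.28, and neither passed. For rs7682431 at 89765661, F was higher in window C by 4.38 ± 0.38 with minP and 4.88 ± 0.49 with SV40, in window R by 4.76 ± 0.35 and 4.15 ± 0.57, and in window L by 1.82 ± 0.54 and 2.94 ± 0.68. In RNA counts alone window L of rs7682431 had the opposite direction. There it differed by -1.45 ± 0.53 with minP, which passed, and -0.51 ± 0.65 with SV40, which did not. The F orientation of rs7682431 was thinly covered, with 22 of 64 listed tags passing in window R with minP and 15 with SV40.

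Among pairs with RC higher, rs938268 at 90036774 had the largest difference with minP. In window R its median tag had 369 input and 14 RNA reads in F and 12 input and 33 RNA reads in RC, and only 15 of 62 listed RC tags passed. The difference was -6.01 ± 0.38, with RC 64.3-fold higher. With SV40 the median tag had 131 input and 20 RNA reads in F and 19 and 76 in RC, and the difference was -4.18 ± 0.57. RC was 2.47-fold higher with minP and 2.83-fold with SV40 in RNA counts alone in that window. The input level was 26.1-fold and 6.41-fold higher in F. Window C had 29 RC tags and a difference of -4.61 ± 0.35 with minP, and 35 RC tags and -3.78 ± 0.34 with SV40. In window L, F minus RC was -0.90 ± 0.30 with minP and, without passing, 0.12 ± 0.32 with SV40.

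The other pair shown by its tags, rs10019681 at 89832532, was better covered. In window C the median tag had 277.5 input and 14 RNA reads in F and 37 and 107 in RC with minP, and 228.5 and 26.5 against 32 and 176 with SV40. RC was higher by 39.7-fold with minP (-5.31 ± 0.24, 58 and 54 tags) and by 43.3-fold with SV40 (-5.44 ± 0.27, 58 and 53 tags), its largest RC-high difference. RC stood 10.6-fold and 12.4-fold above the average tag, and F 3.73-fold and 3.49-fold below it. Window R of that variant was -0.013 ± 0.43 and 0.076 ± 0.47, and window L had too few tags.

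For rs7674369 at 89872176, window R had 263.5 input and 24.5 RNA reads at the median F tag and 21 and 87 at the median RC tag with minP, and 200 and 35 against 37.5 and 256 with SV40. The lowest RC tag (1.88) lay above the highest F tag (1.21) with minP. With SV40 the orientations overlapped, with the lowest RC tag at 0.24 and the highest F tag at 1.26. RC was 39.3-fold and 36.4-fold higher. Window C of rs7674369 was RC-high by less, at -2.69 ± 0.43 and -2.26 ± 0.52. In RNA counts alone window C had the opposite direction, 2.41 ± 0.44 with minP and 1.81 ± 0.50 with SV40, and both passed. There the median tag had 806.5 input reads in F and 22 in RC with minP, and 445 and 25.5 with SV40. Window L had too few tags with minP, and with SV40 it differed by -0.38 ± 0.87 without passing.

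For rs10030965 at 89901415, RC was 31.8-fold higher with minP and 17.4-fold with SV40 in window R. The median RC tag there had 24 and 18 input reads. RC was 2.8-fold and 2.04-fold higher there in RNA counts alone. The input level was 11.4-fold and 8.53-fold higher in F. Window C differed by -0.62 ± 0.26 and -1.33 ± 0.35, and window L in the other direction, by 0.69 ± 0.22 and 0.74 ± 0.24, and all 4 passed. For rs6814344 at 89733882, all 3 windows were RC-high in both libraries, window L by -5.33 ± 0.42 and -4.83 ± 0.51, window C by -4.34 ± 0.28 and -4.20 ± 0.31, and window R by -2.68 ± 0.34 and -2.90 ± 0.38. In RNA counts alone its windows C and R differed by -0.11 ± 0.27 and -0.66 ± 0.35 with minP, and neither passed. With SV40 they differed by -0.89 ± 0.29 and -1.27 ± 0.38 in RNA counts, and both passed. In window L of rs6814344, 19 of 59 listed RC tags passed with minP and 26 with SV40. Some oligonucleotide names of its windows C and R carry a mark of unstated meaning. For rs12645240 at 89912706, window R was RC-high by -4.36 ± 0.32 and -5.32 ± 0.42, and window C differed by 0.16 ± 0.39 and 0.12 ± 0.40, which did not pass.

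A different kind of pair was rs17015052 at 90051503 in window L. Its F orientation was low in plasmid and lower still in RNA: the median F tag had 16.5 input reads and none in RNA with minP, and 18 and 0 with SV40, against 51.5 and 37.5 and 57 and 94 in RC. RC was higher by 8.13-fold with minP and 20.9-fold with SV40. The F side had 0 RNA reads in 11 of 18 tags and 12 of 17, so the size depends on the pseudocount: with SV40, F minus RC was -4.39, and it was -5.11 with a pseudocount of 0.5 and -3.77 with an input minimum of 1. The 18 and 17 passing F tags were few of the 52 listed. It was the 1 pair, among the 13 named for their size, in which the orientation with the higher activity also had the higher input. In the other 12 the input level moved against the activity in each library, while RNA counts alone kept the direction in all 13. Both levels are parts of the ratio that the ranking used, so these signs are no separate support. Over all called pairs, input moved against the ratio in 410 of 795 with minP and 366 of 825 with SV40. RNA counts alone had the direction of the ratio in 629 and 722 of them. The sizes given for these 13 are those the ranking used. Most rest on tags with few plasmid reads on the high side: with a minimum of 50 input reads per tag, 4 of the 13 could still be tested with minP and 0 with SV40. In those 4, F minus RC was -5.53 for rs10019681, 5.98 for rs1398940, 4.91 for rs2869974 and 4.16 for rs2924941, and each passed.

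The alleles of a variant are carried by separate oligonucleotides with separate tags, so the orientation difference can be measured in each from its own tags. Over 1661 pairs with minP, F minus RC of the alphabetically earlier and of the later allele had a Pearson's r of 0.802 and the same sign in 1308. Over 1633 pairs with SV40, r was 0.814 and the sign was the same in 1290. Of the 480 pairs called on tags of the earlier allele alone with minP, 453 had the same sign in the later allele, 281 passed there too, and 0 passed with the opposite sign. Starting from the later allele it was 433 of 453. With SV40 the counts were 482 of 509 and 465 of 479, and 307 passed in both. In pairs called on the earlier allele the median size was 1.76 in that allele and 1.45 in the other with minP, and 1.99 and 1.60 with SV40. For the pairs shown above, rs10516826 had 6.09 ± 0.33 in its C allele and 5.21 ± 0.40 in T with minP, and rs10019681 had -5.15 ± 0.33 in C and -5.50 ± 0.35 in T. Both pairs were picked by a pooled difference made of these same tags. Large values in each allele were thus favoured beforehand and are no separate support.

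Windows of 1 variant are carried by separate oligonucleotides and share no tags, and how they are laid out around the variant is not given in the sources used here. Their orientation differences were less alike than those of the alleles. With minP, r over variants was 0.378 between windows L and C, 0.386 between C and R, and 0.213 between L and R. With SV40 it was 0.299, 0.295 and 0.158. Over all variants with both windows tested, the sign was the same in 58.5% for L with C, 57.6% for C with R and 54.8% for L with R with minP. With SV40 these shares were 55.5%, 56.5% and 57.1%. Of 251 comparisons of windows in which both passed in both libraries, 188 had the same sign and 63 the opposite sign, the latter from 49 variants, of which rs1398940, rs2924941 and rs10030965 are described above. All 3 windows were tested for 564 variants with minP and 560 with SV40. They all passed in both libraries for 37 variants, with F higher throughout for 13 and RC higher throughout for 10.

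Neighbouring variants were compared too. For 64 pairs of variants 60 to 140 bases apart, window R of the variant at the lower position was set against window L of the variant at the higher position. Their orientation differences had r = 0.551 with minP (the same sign in 44 of 61) and 0.522 with SV40 (43 of 59), the highest of the 9 window combinations in each library. In RNA counts alone the same combination had r = 0.339 (36 of 61) and 0.341 (37 of 59). The outer windows, L of the lower and R of the higher variant, had r = 0.117 and 0.157, with the same sign in 29 of 56 and 29 of 55. The lowest were C with R, at -0.104 and -0.11, and R with R, at -0.076 and -0.078. The stretch of rs2869974 and rs1398940 is an instance in the ratio. There window R of the first and window L of the second were both far higher in F. In RNA counts alone those windows differed by 0.21 ± 0.31 and 4.16 ± 0.29 with minP. With SV40 they differed by 0.97 ± 0.30 and 4.47 ± 0.36 in RNA counts. All of these comparisons are descriptions, since 1 variant can enter several of them.

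The ratio was also taken apart into its RNA and its input level. In RNA counts alone, 1158 of 1763 minP pairs passed, with F higher in 600 (34.0%) and RC in 558 (31.7%), and 1174 of 1759 SV40 pairs, with F higher in 609 (34.6%) and RC in 565 (32.1%). In input counts alone even more passed: 747 (42.4%) and 698 (39.6%) with minP, and 731 (41.6%) and 682 (38.8%) with SV40. The plasmid pools themselves held the orientations of most elements at different levels, by a median of 2.13-fold with minP and 2.04-fold with SV40 over all pairs. RNA and input differences went together, with r = 0.744 with minP and 0.740 with SV40. Between F and RC of a pair, r was 0.235 and 0.245 for the RNA level and -0.039 and 0.057 for the input level.

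Of the 795 pairs called in the minP ratio, 629 had the same sign in RNA counts alone and 503 passed there, while 166 had the opposite sign and 88 passed with it. In input counts alone 330 passed with the same sign and 371 with the opposite. Thus 192 calls had a called input difference of the opposite sign and no called RNA difference. With SV40, 722 of 825 had the same sign in RNA counts alone, 616 passed, 103 had the opposite sign and 40 passed with it, and 154 calls had a called opposite input difference and no called RNA difference. Where the input level did not pass, 94 of 318 minP pairs (29.6%) and 114 of 346 SV40 pairs (32.9%) still differed in the ratio, by up to 9.09-fold and 15.2-fold. Where it passed, 48.5% and 50.3% did. Between F and RC the input difference and the ratio difference had r = -0.169 with minP and 0.036 with SV40.

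Most pairs called with 1 promoter were also called with the other. In both libraries 330 pairs passed with F higher (18.8% of 1754) and 323 with RC higher (18.4%), and 0 passed with opposite signs. These were 82.7% of the minP calls and 79.2% of the SV40 calls tested in both. Of 137 pairs called with minP alone 128 had the same sign with SV40, and of 172 called with SV40 alone 166 had the same sign with minP. Over pairs r was 0.937. Both libraries carry the same tags, so disjoint tags were set side by side too: the earlier allele with minP against the later with SV40 gave r = 0.782, and the later with minP against the earlier with SV40 gave 0.788.

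The size of the orientation difference did differ between the libraries in some pairs. Tested per tag as the minP ratio minus the SV40 ratio, 73 of 1682 pairs passed (4.34%), and 321 had an unadjusted p under 0.05. With 1 library per promoter this compares the libraries and not the promoters. Of the 73, 58 had the same sign in both libraries and 0 were called with opposite signs, and the difference was larger with minP in 16. The largest was rs80074956 at 90012916 in window C, where F was higher by 1.73 ± 0.35 with minP and by 4.23 ± 0.31 with SV40. Its median RC tag had 84 plasmid reads and 11 in RNA with minP, against 289 and 15 with SV40. For rs72870517 at 89667065 in window C, RC was higher in both libraries, by -2.27 ± 0.35 with minP and -4.29 ± 0.37 with SV40.

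Along the locus, which runs here from 89528529 to 90116697 and covers the neighbourhood of FAM13A, the difference between orientations had little trend. Among the genes by rising position in RefSeq are, in this order, HERC3, NAP1L5, FAM13A-AS1, FAM13A, TIGD2 and GPRIN3, with FAM13A and NAP1L5 on the minus strand and HERC3, FAM13A-AS1 and TIGD2 on the plus strand. Spearman's rank correlation with position was -0.040 with minP and -0.039 with SV40 over pairs. In 6 stretches with equal numbers of variants, the median of F minus RC lay between -0.11 and 0.15 with minP and between -0.14 and 0.10 with SV40, and 41.1% to 46.6% and 44.0% to 50.3% of pairs were called. The extremes were the same stretches in both libraries. From 89750105 to 89850542 F was higher in 162 of 293 pairs with minP, with 83 calls against 53, and in 159 of 292 with SV40, with 85 calls against 62. From 90023790 to 90116697 F was higher in 132 of 287 and 128 of 286, with 51 calls against 81 and 59 against 79.

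In finer stretches the last of 12, with 50 variants from 90058994 upward, had the lowest median in both libraries. RC was higher in 93 of 145 pairs with minP and in 96 of 145 with SV40, and the median of F minus RC was -0.33 and -0.38, where all other pairs had 0.061 and 0.068. Calls were 25 with F higher and 48 with RC higher with minP, and 24 and 49 with SV40. Other stretches had uneven calls too: with minP the 6th had 48 F-high and 24 RC-high calls, the 8th 25 and 41, and the 9th 48 and 29. The adjoining 11th had a median of 0.21 with minP and 0.12 with SV40. Within these same pairs, which were picked for their pooled median, the median was -0.53, -0.20 and -0.23 in windows L, C and R with minP and -0.65, -0.27 and -0.24 with SV40, and by allele -0.31 and -0.28 with minP and -0.40 and -0.34 with SV40. RNA counts alone had a median of -0.56 and -0.69, and input counts alone -0.10 and -0.27. By variant, 33 of 49 had a median below 0 with minP and 34 of 49 with SV40. The division into 12 was an alternative to the one into 6, and no test was made of it because neighbouring pairs overlap.

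Both orientations stood at least 1 on the log2 scale above the average tag in 5 of 1763 pairs with minP and 15 of 1759 with SV40. At least 1 orientation did so in 295 and 397 pairs, and no count expected from that share was computed. The 3 described here were picked, after their values were seen, as having the highest lowest activity over both orientations and both libraries. For rs10004795 at 90000860 in window L, F stood 2.43-fold and RC 2.39-fold above the average tag with minP, and 2.76-fold and 2.51-fold with SV40. F minus RC was 0.022 ± 0.20 with minP (62 and 60 tags) and 0.14 ± 0.22 with SV40 (permutation test, adjusted p = 0.941 and 0.651), although the median tag had 448.5 input reads in F and 137 in RC with minP. For rs2305934 at 89744242 in window L, F and RC stood 2.09-fold and 2.11-fold above with minP and 2.31-fold and 2.35-fold with SV40, and F minus RC was -0.018 ± 0.19 and -0.021 ± 0.17. For rs7697781 at 90093972 in window C, both orientations were above the average, and F was higher than RC by 1.04 ± 0.31 and 1.08 ± 0.33 (permutation test, adjusted p = 0.00408 and 0.00466). In RNA counts alone the latter pair was -0.25 and -0.32.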

How the data were processed

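The file deposited by the authors holds whole-number read counts per tag, 1 column for each of the 4 libraries, read with single reads of 36 nt per the labels. The matching of reads to tags and any read filter are not given in the sources used here. The names of 394 of 7270 oligonucleotides carry a mark of unstated meaning, and these were kept. Library totals, not replicate libraries, set the depth, and reads are not independent molecules.

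Tags under 10 input reads were dropped. The ratio of a tag was log2 of RNA reads plus 1 over the RNA total, less the same for input. RNA and input levels are its parts. Each pair was tested by shuffling F and RC among its tags (100000 resamples, two-sided, smallest p 1e-05) and adjusted by Benjamini-Hochberg over all pairs of a library at 0.05, in Python 3.11.15 with numpy 2.4.6, pandas 2.3.3, scipy 1.17.1 and numba 0.67.0. The code was tested on simulated data. Count models need replicate libraries and were not used.

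Named pairs are, per library, the 5 largest called differences in each direction, the 10 largest called in both libraries, and the 5 largest differences between libraries, with 1 pair per variant in each. These rules and the choice of the comparison were made with earlier results of these data known. Positions are those of the table. Gene order and strand are from RefSeq, assembly GRCh38.p14, with no coordinate converted, and whether an element lies in an exon or an intron was not analysed here. Alternatives are given in the closing section.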

Additional observations from a re-analysis of the deposited data

Results flagged for a closer look

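The 5 pairs given here are the largest of the 73 in which the orientation difference itself differed between the libraries, in a per-tag test of the minP ratio minus the SV40 ratio (permutation tests with adjustment over 1682 pairs). For rs80074956 in window C the difference of F minus RC between minP and SV40 was -2.39 ± 0.24 (54 and 61 tags, adjusted p = 0.00210, permutation test). In RNA counts alone F minus RC was 1.70 with minP and 2.24 with SV40, and in input counts alone -0.029 and -1.99. For rs72870517 in window C it was 2.13 ± 0.41 (24 and 52 tags), where the median F tag had 1 RNA read with minP and 0 with SV40. For rs17014988 in window C it was 1.90 ± 0.55 (16 and 45 tags). There F minus RC was -0.61 ± 0.47 with minP, which did not pass, and -2.15 ± 0.47 with SV40. For rs11735482 in window L it was -1.76 ± 0.47 (60 and 23 tags). F minus RC over all passing tags of that pair was -1.56 ± 0.37 with minP. It was -0.71 ± 0.49 with SV40, which did not pass. RNA counts alone gave 0.075 ± 0.39 with minP and 0.38 ± 0.48 with SV40, and neither passed. Input counts alone gave 1.63 ± 0.16 and 1.085 ± 0.21, and both passed. The median tag of either orientation had under 7 RNA reads in both libraries. For rs2609262 in window L it was -1.75 ± 0.22 (47 and 61 tags). F was higher by 1.19 ± 0.32 with minP and by 2.81 ± 0.35 with SV40. RNA counts alone gave -0.96 and -0.64, which is the opposite direction in both libraries. Each promoter had 1 library, so these are differences between libraries.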

How the results depend on the processing

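With a minimum of 50 input reads per tag, fewer pairs had enough tags, and calls numbered 489 of 1356 with minP, 489 of 1320 with SV40 and 358 in both, with 763 calls in the SV40 RNA level, 933 in the SV40 input level and 27 in the difference between libraries. That difference had 32 calls with a pseudocount of 0.5, and the cause was not tested. On fewer tags, the earlier allele alone gave 494 calls with minP, 528 with SV40 and 368 in both, and the later allele alone 466, 493 and 344. The range of the stretch medians was 0.0719 with minP and 0.0865 with SV40 in 3 stretches, and 0.540 and 0.613 in 12, against 0.264 and 0.247 in 6. Of 310 alternatives of the 28 named results, 287 kept direction and side of the threshold. Alternatives that could not be tested are not among the 310, and with a minimum of 50 input reads only 6 of the 28 could be tested. The exceptions were rs11735482 in window L with an input minimum of 1 (difference between libraries -0.82) and 22 in input counts alone, where F minus RC took the opposite sign to the ratio, with minP first and SV40 next: rs10019681 C 2.89 and 2.76, rs10516826 L -2.78 and -3.32, rs12645240 R 0.689 and 1.16, rs1398940 L -2.08 and -1.15, rs2869974 C -2.34 and -2.0, rs2924941 L -1.43 and -0.983, rs6814344 L 1.65 and 1.05, rs7674369 R 3.43 and 2.33, rs7682431 C -2.87 and -2.17, rs938268 R 4.70 and 2.68, and, with minP, rs10030965 R 3.51 and rs7682431 R -2.13. The size of a named difference moved by over 1.5 times in several alternatives. With an input minimum of 1 it became 6.89 for rs10516826 L, -5.84 for rs7674369 R, 6.01 for rs7682431 C and -5.10 for rs938268 R with SV40, and 5.25, 5.38 and -6.91 for rs7682431 C, rs7682431 R and rs938268 R with minP, and 1.19 for the difference between libraries of rs17014988 C. Without tags at 0 RNA reads it became -4.66 with SV40 and -3.27 with minP for rs12645240 R, and 5.55, 4.54 and -4.74 for rs1398940 L, rs2924941 L and rs6814344 L with minP. Summed counts gave 5.09 for rs2869974 C and 4.46 for rs2924941 L with SV40, and 4.59 for rs2924941 L and 4.97 for rs7682431 C with minP. The earlier and later allele alone gave -5.63 and -4.02 for rs6814344 L with SV40 and 5.06 and 3.72 for rs7682431 C with minP. No paired analysis was possible because each group has 1 library, so that no replicate libraries could be paired (tags were paired in the test between libraries), and leaving out a replicate could not be fitted.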
